A study of Sus scrofa with 9 samples.

Results

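Solute carriers (SLC) are membrane proteins that move nutrients, ions, metals, nucleotide sugars and metabolites into cells and between their compartments. Genes were taken as SLC genes where a probe set of the Affymetrix Porcine Genome Array had a single gene symbol that starts with SLC followed by a digit, which gave 176 probe sets of 120 genes. Where a gene had several probe sets, the one brightest on average over the 9 arrays (mean log2 signal) stood for it. Of the 120 genes, 90 were above background on all 3 arrays of at least 1 stage, and these 90 are the set described in depth. Background was the 95th percentile of 23 control probe sets (AFFX Tag and Trpn controls) on the same array. The 90 were thus selected on signal level in these same arrays, and a gene that entered through its brightest stage alone was bound to differ between stages, so calls are counted over all 120 genes first.

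The SLC superfamily holds importers of sugars and amino acids at the cell surface, carriers of the inner mitochondrial membrane (SLC25), Golgi transporters that supply activated sugars and sulfate for the building of proteoglycans and glycoproteins (SLC35), and transporters of zinc, iron, copper, bicarbonate and chloride. A tooth germ grows by proliferation of dental epithelium and mesenchyme and by secretion of matrix. Ion and metal carriers of this superfamily are known in teeth mainly from the later enamel-forming stages.

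The arrays measured molar germs of the Wuzhishan miniature pig at embryonic day (E) 50, E60 and E70, with 3 arrays per stage. These additional (permanent) molar germs were dissected from the mandible together with the dental lamina attached to them. By the labels, E50 is the cap stage of the first molar (M1), before the second molar (M2) begins. E60 is the bell stage of M1, when M2 begins, and by E70 M1 has reached late bell. RNA came from pools of germs of 1 stage and litter, and the labels call the arrays biological replicates without saying whether they stand for separate litters, so the p-values measure the spread between these arrays, which may be technical. All 9 arrays are of this breed. In the labels the groups differ by embryonic day alone, with no treatment or genotype named. As each array holds RNA from a whole germ, fewer cells of a type and less RNA per cell cannot be told apart.

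The E50 arrays stood apart from the rest before any gene was compared. The geometric mean of the hybridisation spike controls was 58370 to 66123 on the E50 arrays and 3086 to 4268 on the others. Over all probe sets, E50 arrays correlated at 0.60 to 0.68 with each other and at 0.60 to 0.70 with later arrays. The ratio of the 3′ to the 5′ probe set of the EF1A control lay between 49.3 and 55.8 on the E50 arrays, between 1.42 and 1.56 on the E60 arrays and between 1.35 and 1.47 on the E70 arrays. Background ranged over 77.7 to 379 in the E50 group, 37.9 to 54.4 in the E60 group and 38.1 to 55.8 in the E70 group. Accordingly, 47 to 84 of the 120 SLC genes were above background on an E50 array, 93 to 99 on an E60 array and 90 to 98 on an E70 array. The median SD of the SLC genes' log2 signal over the arrays of a stage came to 1.17 for E50, 0.30 for E60 and 0.33 for E70, beside 1.03, 0.26 and 0.32 for all probe sets in the same order. All 3 E50 arrays carried these properties, so stage E50 and the state of its arrays cannot be told apart in any comparison with E50. The comparison of E70 with E60 does not rest on them once those stages are fitted alone.

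**Figure D1:**
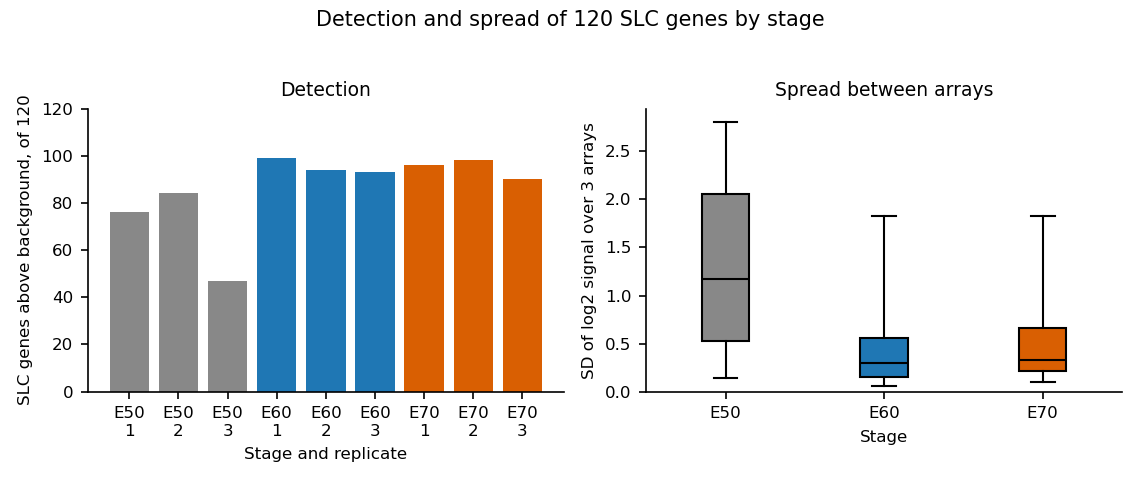
Left, number of the 120 SLC genes above background on each array, by stage and replicate; right, SD of log2 signal over the 3 arrays of a stage for the 120 genes (box, quartiles and median; whiskers, 5th to 95th percentile). The E50 arrays detected 47 to 84 genes, against 90 to 99 on the later arrays, and their median SD was 1.17.

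Of the 90 genes, 40 were above background on all 9 arrays and 44 on every E60 and E70 array but not on every E50 array. A further 4 passed at E60 only, and all 4 carry amino acids or glucose: *SLC1A2* and *SLC1A3*, the glial-type glutamate transporters, *SLC36A2*, a proton-coupled carrier of small amino acids, and *SLC2A4*, the insulin-responsive glucose transporter GLUT4. The remaining 2 passed at E70 only, namely *SLC27A1*, a fatty acid transport protein, and *SLC35C1*, the Golgi GDP-fucose transporter. The lowest signal in the best stage was 1.10 times background for *SLC35C1* and 1.20 times for *SLC2A4*, just inside the limit. Just outside it were the intestinal anion exchanger *SLC26A3* at 0.963 times and the sodium-glucose cotransporter *SLC5A1* at 0.922 times. The 30 genes that did not pass include carriers best known from gut, liver and kidney, such as *SLC10A1*, *SLC22A2*, *SLC2A2*, *SLC15A1* and *SLC5A1*.

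The first question was which SLC genes changed as M1 went from cap to bell and M2 began. At E60 against E50, 5 SLC genes were higher and 15 lower at an adjusted p under 0.05 (limma, Benjamini-Hochberg over 23999 probe sets), which is 16.7% of the 120 genes, beside 18.5% of all probe sets and 20.9% of all 6765 genes taken with 1 probe set each. By direction, 7.20% of all genes were higher and 13.7% lower. The 90 genes above background held all 5 higher and 12 of the lower calls. The median fitted log2 change was -0.39 over the 120 genes and -0.18 over all probe sets. It was -0.08 over the 90 genes above background, -0.67 over the 40 above background on all 9 arrays and -1.88 over the 30 not above background, whose fitted changes are not measured ones. The 40 had to exceed backgrounds of 77.7 to 379 at E50 but only 37.9 to 54.4 at E60. That selection favours genes high at E50, so their median is no measure of a fall. The arrays of the stages did not overlap for 13 SLC genes higher and 36 lower at E60, beside 18.2% of all genes higher and 27.5% lower. The moderated F-test over the 3 stages called 17 of the 120 genes, beside 17.7% of all probe sets. No share of the SLC genes called or apart was larger than its background, except that 36 of 120 were apart on the lower side, slightly above 27.5%.

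The split by direction depended on how arrays were scaled. Median centring of each array moved the median change of all probe sets at E60 against E50 to 0.60 and gave 14 higher and 3 lower SLC genes, and quantile normalization moved it to 0.00 and gave 6 higher and 11 lower. Of all probe sets, 23.3% were called with median centring and 14.9% with quantile normalization. All 20 called genes kept their sign under the 3 other scalings tried, and 8 of them stayed called with median centring, 11 with quantile normalization and 19 with 75th percentile centring. Leaving out any 1 E60 array left 2 higher and 5 or 6 lower, beside 7.33% to 9.21% of all probe sets called. Leaving out E50 replicate 1, 2 or 3 gave 8 higher and 16 lower, 7 higher and 19 lower, and 10 higher and 22 lower, beside 24.2%, 23.6% and 24.9% of all probe sets. Of the 12 falls among genes above background, 9 had E60 signals that all lay under 379, the background of E50 replicate 3. The exceptions were *SLC2A4RG*, *SLC39A1* and *SLC44A2*.

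**Figure D2:**
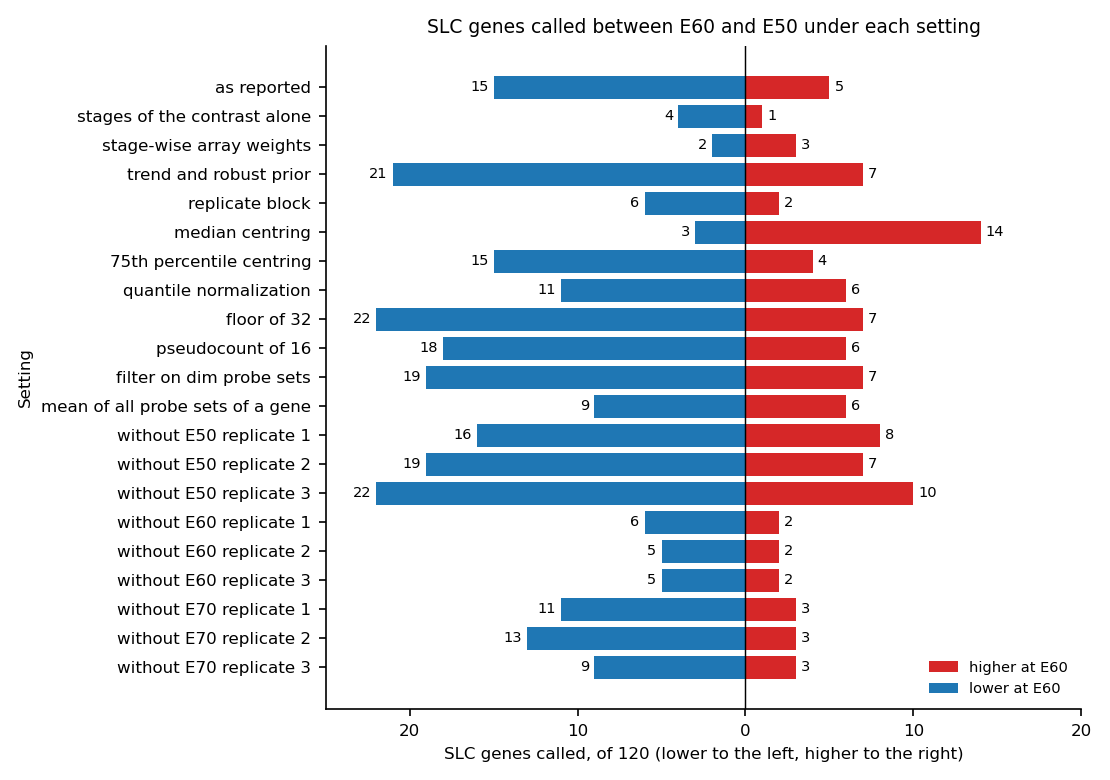
Number of the 120 SLC genes called lower (left) and higher (right) at E60 than at E50 under each setting, with the number beside each bar. The reported fit called 5 higher and 15 lower, and median centring turned the majority to 14 higher and 3 lower.

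Among the 90 genes above background, the called genes with the largest fitted changes in both directions were Golgi transporters of sulfate donors, though the fitted rise is not a measured one. *SLC35B3* and *SLC35B2* encode the known Golgi transporters of PAPS, the activated sulfate that sulfotransferases use on proteoglycans, and they moved in opposite directions. *SLC35B3* had signals of 641, 473 and 496 at E60, against 4.63, 14.0 and 77.6 at E50, where it was not above background on any array. As *SLC35B3* entered the set through E60 and E70 without E50, a level higher than at E50 was favoured by that selection. It was at least 2.74-fold higher at E60 (adjusted p = 0.0113, limma), where the bound sets the E60 mean against the lowest signal that was above background on each E50 array or the gene's own signal if higher. *SLC35B2* fell to 279.7, 175 and 247 at E60, against 1403, 1114 and 1201 at E50, a log2 change of -2.43 (SE 0.30, adjusted p = 0.00337, limma). Neither gene's E60 and E50 arrays overlapped. The call for *SLC35B2* held under all 20 alternatives, and that for *SLC35B3* under 19, the exception being the fit of E60 and E50 alone.

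Also in this group, *SLC35F5*, a carrier of the nucleotide sugar family whose substrate is not settled, rose at E60 with signals of 2507, 1142 and 1178, against 657, 599 and 582 at E50 (log2 change 1.29, SE 0.36, adjusted p = 0.0450, limma). This call was near the threshold and held under 6 of 20 alternatives. Other probe sets of *SLC35F5*, above background as well, changed by 1.12 and -0.62 and were not called. *SLC35C2*, a Golgi protein tied to fucose transfer, fell to 132, 130.4 and 189.6 at E60, against 348, 355 and 464 at E50 (log2 change -1.38, SE 0.26, adjusted p = 0.0128, limma), while its other probe set, at -0.08, was not called. Its call held under 14 of 20 alternatives. Of all genes, 7.20% were called higher and 13.7% lower at E60. In all, 2 of the 13 genes for nucleosides and nucleotide sugars rose, 2 fell and 9 were not called. Among those not called were *SLC35B1*, an ATP carrier of the endoplasmic reticulum, with a log2 change of 0.50 (SE 0.34), and *SLC35D2*, a Golgi carrier of UDP-sugars, with -0.41 (SE 0.23).

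**Figure D3:**
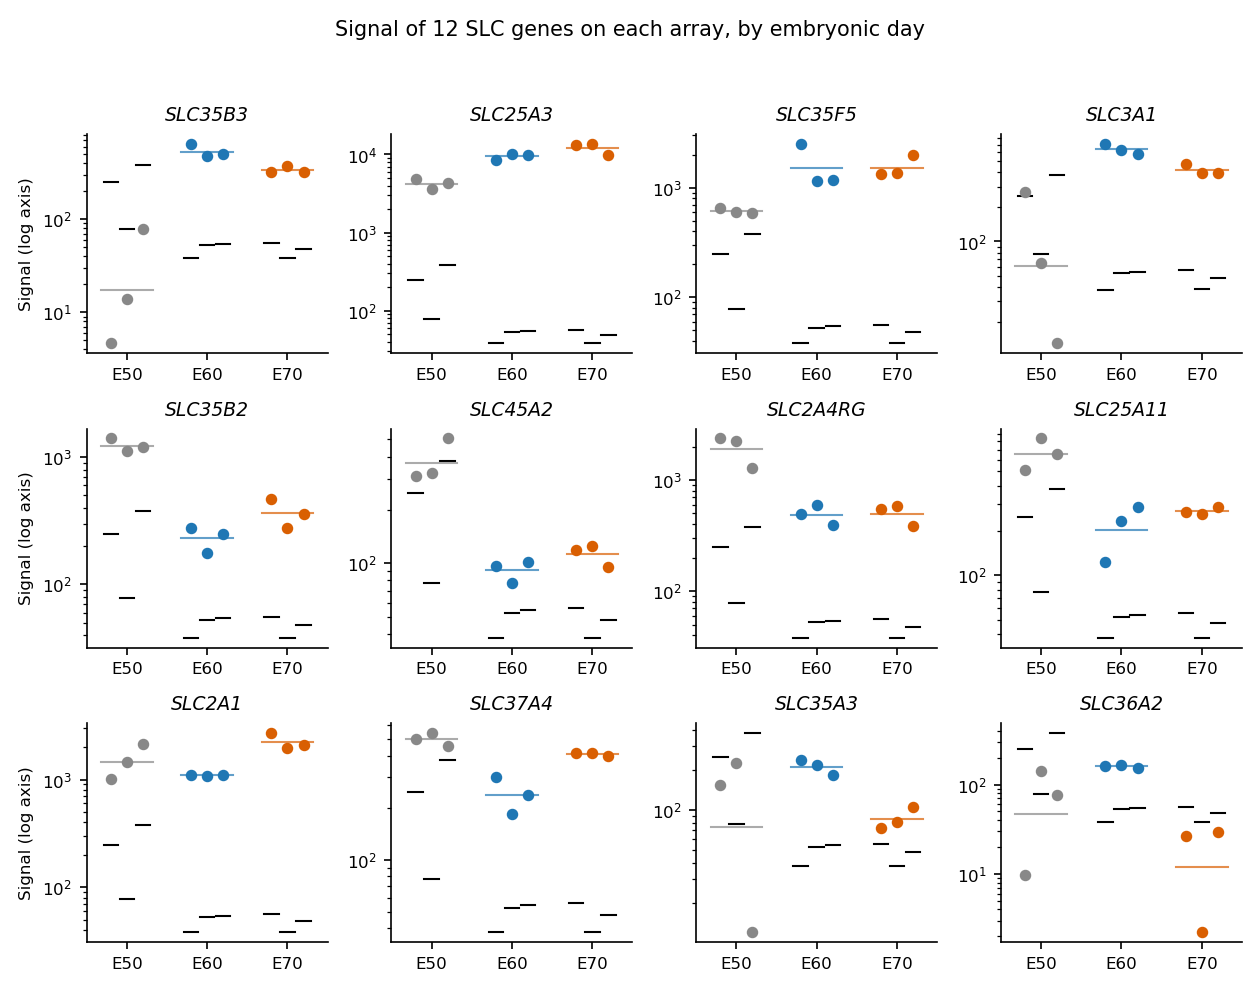
Signal (log axis) of 12 SLC genes on each of the 9 arrays at E50, E60 and E70; points are arrays, coloured lines the geometric mean of a stage and short black lines the background of each array. *SLC35B3* lay under background at E50 and at 318 to 641 later, while *SLC35B2* lay at 1114 to 1403 at E50 and at 175 to 472 later.

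The SLC25 family, which exchanges metabolites across the inner mitochondrial membrane, had 20 of 21 genes above background. At E60 against E50, 2 of the 21 rose, 1 fell and 18 were not called, beside 7.20% of all genes higher and 13.7% lower. *SLC25A3*, the mitochondrial phosphate carrier needed for ATP synthesis, rose to 8603, 10127 and 9719 at E60, against 4810.2, 3632 and 4352 at E50 (log2 change 1.16, SE 0.24, adjusted p = 0.0170, limma), with no overlap. This call held under 14 of 20 alternatives and was lost on leaving out any 1 E60 array and in the fit of these stages alone. *SLC25A46*, an outer-membrane member of the family that acts in mitochondrial shape, gave 142, 149 and 139.8 at E60, against 32.5, 9.22 and 7.25 at E50 (adjusted p = 0.00993, limma). It was not above background on any E50 array, and its E60 signals lay under the background of E50 replicates 1 and 3, so no fold is given, although the call held under all 20 alternatives. *SLC25A46* too entered the set through E60 and E70 without E50, which favours a level higher than at E50.

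*SLC25A11*, the oxoglutarate-malate carrier of the malate-aspartate shuttle, fell to 123, 231 and 289.6 at E60, against 513, 834 and 658 at E50 (log2 change -1.70, SE 0.36, adjusted p = 0.0191, limma), a call kept under 15 of 20 alternatives. The other exchanger of that shuttle on the array, *SLC25A12*, was not called, with 803, 1044 and 1156 at E60 and 701, 803 and 664 at E50 (log2 change 0.46, SE 0.25). The ADP/ATP carriers also differed in direction without a call between these stages. The log2 change was -0.86 (SE 0.26, adjusted p = 0.0580, limma) for *SLC25A4*, the form of heart and skeletal muscle, 0.93 (SE 0.29, adjusted p = 0.0643) for *SLC25A5*, the form of dividing cells, and -0.18 (SE 0.23) for *SLC25A6*, the broadly expressed form.

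Several further carriers of this family differed without overlap between E60 and E50 arrays and were not called. In the whole family, 6 of 21 genes were higher without overlap and 9 lower, beside 18.2% of all genes higher and 27.5% lower. *SLC25A24*, which loads mitochondria with ATP-magnesium in exchange for phosphate, had 2175, 2177 and 2019 at E60 and 1325, 1454 and 610.0 at E50 (log2 change 1.01, SE 0.40, adjusted p = 0.124). *SLC25A20*, the carnitine-acylcarnitine carrier of fatty acid oxidation, had 735, 873 and 659.5 at E60 and 1148, 1591 and 1128 at E50 (log2 change -0.76, SE 0.26, adjusted p = 0.0794). *SLC25A39* and *SLC25A38*, which serve glutathione import and haem synthesis, had log2 changes of -1.47 (SE 0.44, adjusted p = 0.0548) and -0.85 (SE 0.27, adjusted p = 0.0707). The summed signal of 7 erythroid markers (of 10 listed) was 2773 to 3209 at E60 and 2183 to 2920 at E50, with 1 higher and 1 lower and *TFRC* above background on no array, and its part was not tested.

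Skeletal muscle markers are given here beside *SLC25A4*, which was not called between E60 and E50. From E60 to E70 *SLC25A4* had a log2 change of -0.27 (adjusted p = 0.479, limma fit of these stages alone). Of 22 listed markers 15 were on the array, 12 with a negative and 3 with a positive change at E60 against E50. Called lower were 7 of the 15, and called higher 0, beside 13.7% of all genes lower and 7.20% higher. The summed signal of the 15 was 2405 to 2597 at E60, against 7360 to 10281 at E50, and 788 to 1007 at E70. Of the defining markers *MYH2* and *MYOD1* were not above background on any array. The part of muscle in these results was not tested.

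Among 15 genes for sugars and polyols, 0 rose, 3 fell and 12 were not called at E60 against E50. Of all genes, 7.20% were called higher and 13.7% lower. *SLC45A2*, known as a transporter of the pigment cell's melanosome, fell to 96.6, 77.2 and 101 at E60, against 309, 322 and 506 at E50 (log2 change -2.02, SE 0.28, adjusted p = 0.00495, limma), and the call held under all 20 alternatives. Its E50 signals were above background on all 3 arrays, though on E50 replicate 1 a signal of 309 stood over a background of 248, and on E50 replicate 3 a signal of 506 over one of 379. *SLC2A12*, the glucose transporter GLUT12, fell to 87.3, 131 and 122 at E60, against 189, 433 and 357 at E50 (log2 change -1.46, SE 0.37, adjusted p = 0.0336, limma). It was above background on only 1 E50 array, and its call held under 8 of 20 alternatives.

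The third was *SLC37A4*, which carries glucose-6-phosphate into the endoplasmic reticulum, with 299, 183 and 238 at E60, against 496, 540.3 and 454 at E50 (log2 change -1.08, SE 0.24, adjusted p = 0.0236, limma), a call kept under 12 of 20 alternatives. The main glucose transporters of growing tissue were not called: *SLC2A1* (GLUT1) had a log2 change of -0.42 (SE 0.31) and *SLC2A3* (GLUT3) of -0.20 (SE 0.37). *SLC2A4RG* is named for the *SLC2A4* gene that its protein regulates as a transcription factor and is no transporter. It fell to 494, 597 and 393 at E60, against 2367, 2266 and 1271 at E50 (log2 change -1.96, SE 0.34, adjusted p = 0.00989, limma), well above background throughout, and kept its call under 18 of 20 alternatives. *SLC2A4* itself had 45.6, 140.0 and 130.3 at E60, while at E50 no array was above background and the highest signal was 379 (adjusted p = 0.598).

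Of 21 genes for amino acids, peptides and neurotransmitters, 1 rose and 0 fell, beside 7.20% of all genes higher and 13.7% lower. *SLC3A1*, the heavy chain of the transporter for cystine and basic amino acids, had signals of 709, 626 and 585 at E60, against 272, 64.6 and 12.9 at E50 (adjusted p = 0.0466, limma). It was above background on 1 of 3 E50 arrays, so no fold is given, its other probe set changed by 0.24 (adjusted p = 0.908), and the call held under 9 of 20 alternatives. *SLC3A1* too entered the set through E60 and E70 without E50, which favours a level higher than at E50. *SLC7A9*, the light chain with which it pairs in kidney and gut, was not above background on any E60 or E70 array. *SLC1A5*, a major importer of glutamine, had 568, 574 and 533 at E60 and 895, 984 and 1020.4 at E50, without overlap, and narrowly missed the threshold (log2 change -0.79, SE 0.24, adjusted p = 0.0607). *SLC7A7*, a light chain found in macrophages among other cells, gave 148, 126 and 208 at E60 and 619.9, 209 and 396 at E50 (adjusted p = 0.0805). The summed signal of 8 macrophage markers (of 12 listed) was 3239 to 3340 at E60, against 6225 to 9010 at E50, with 3 of the 8 lower and 1 higher, and its part was not tested.

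Metal carriers counted 13, with 0 higher and 2 lower at E60, beside 7.20% of all genes higher and 13.7% lower. *SLC39A14* (ZIP14), an importer of zinc, manganese and iron, fell to 189, 213 and 305 at E60, against 569, 399.6 and 907 at E50 (log2 change -1.36, SE 0.37, adjusted p = 0.0421, limma). This call held under 6 of 20 alternatives, and its other probe set, not above background, changed by 0.12 (adjusted p = 0.918). *SLC39A1* (ZIP1), a zinc importer of the plasma membrane, fell to 878, 1332 and 1245 at E60, against 2316, 2659.9 and 2136 at E50 (log2 change -1.06, SE 0.24, adjusted p = 0.0248, limma). Its probe set carries the suffix that marks probes shared with other transcripts, and its other probe set changed by -0.19 (adjusted p = 0.559). Its call held under 12 of 20 alternatives. *SLC39A7* (ZIP7), which releases zinc from the endoplasmic reticulum, had a log2 change of 0.25 (SE 0.25). *SLC11A2* (DMT1), the importer of ferrous iron, had 0.02 (SE 0.43) on its brightest probe set, while a second probe set was called lower at -2.18 (adjusted p = 0.0103).

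Vitamin, choline and haem carriers counted 9, with 0 higher and 3 lower, beside 7.20% of all genes higher and 13.7% lower. *SLC52A2*, a riboflavin transporter, fell to 226, 221 and 159.7 at E60, against 393, 419.9 and 788 at E50 (log2 change -1.34, SE 0.32, adjusted p = 0.0282, limma), a call kept under 11 of 20 alternatives. *SLC44A2*, a choline transporter-like protein, fell to 399, 372 and 327 at E60, against 771, 817 and 906 at E50 (log2 change -1.19, SE 0.24, adjusted p = 0.0174, limma), but its 2 other probe sets changed by 0.16 and 1.03 and were not called, and the call held under 13 of 20 alternatives. The third, *SLC23A1*, a vitamin C transporter, was above background on 1 E50 array and on no later one. Among 9 genes for organic ions and acyl groups, 1 fell: *SLC22A5* (OCTN2), the importer of carnitine, had 106, 134 and 121 at E60, against 224, 622 and 328 at E50 (log2 change -1.58, SE 0.38, adjusted p = 0.0288, limma), with 1 E50 array above background. That call held under 9 of 20 alternatives and was lost on leaving out any 1 E60 array.

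The 12 carriers of sodium, protons, bicarbonate, chloride and calcium held 0 higher and 2 lower calls, both in genes not above background, *SLC26A3* and the iodide transporter *SLC5A5*. A list of 30 SLC genes linked to teeth had 11 on the array, of which 6 were above background. Of the 11, 2 were called, both lower (*SLC39A14* and *SLC26A3*), beside 13.7% of all genes lower. *SLC4A4*, the sodium-bicarbonate cotransporter used by ameloblasts, had 214, 337 and 234 at E60, against 13.9, 8.92 and 259 at E50, where no array was above background. Its E60 signals all lay under the background of E50 replicate 3, 379, so no fold is given, and it was not called (adjusted p = 0.108, limma). *SLC26A6*, an exchanger of chloride for bicarbonate and oxalate, had 128, 157 and 142 at E60 and 92.9, 134 and 21.9 at E50 (adjusted p = 0.246). *SLC4A2*, *SLC8A1* and *SLC34A2*, an anion exchanger, a sodium-calcium exchanger and a phosphate cotransporter, were below the limit in every stage. Of 2 monocarboxylate carriers, *SLC16A13* was not called (adjusted p = 0.0681, limma), with no E50 array above background and no fold given. The other, *SLC16A3*, the lactate exporter MCT4, had a log2 change of -1.21 (SE 0.71) with 2 of 3 E50 arrays above background.

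**Figure D4:**
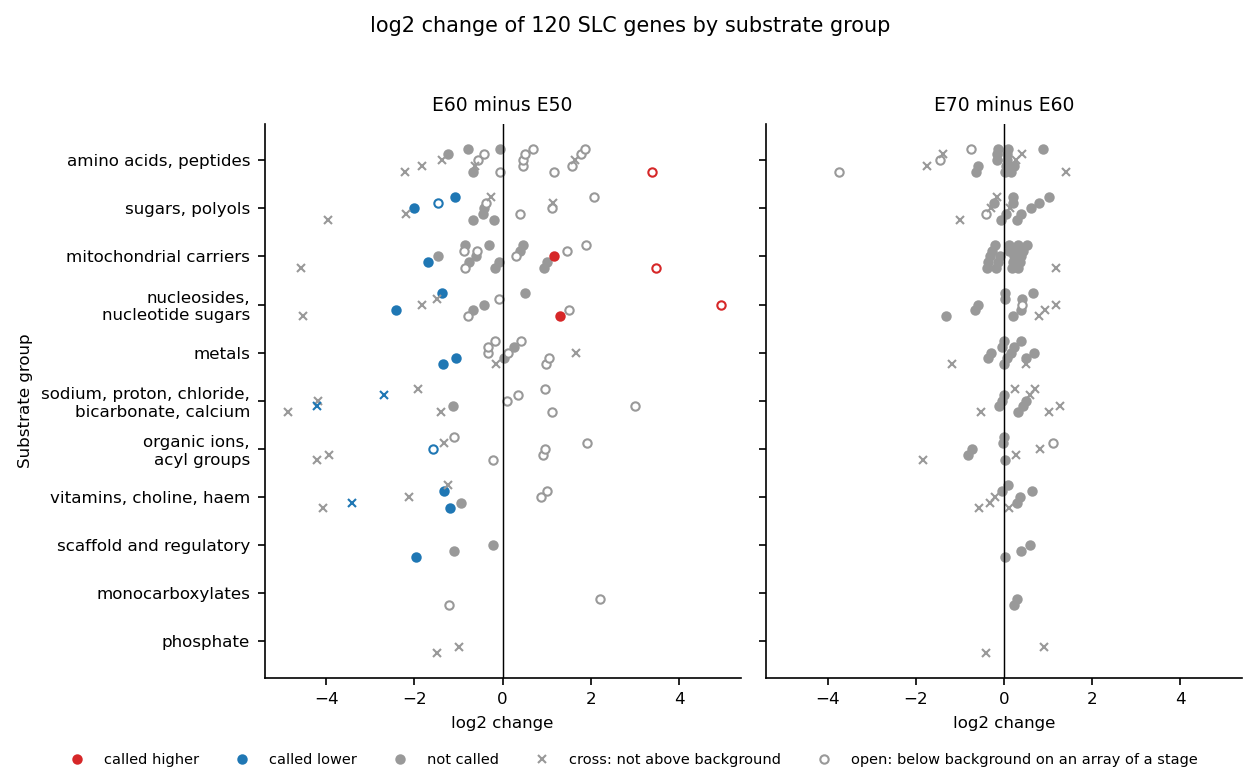
log2 change of each of the 120 SLC genes by substrate group, for E60 minus E50 (left) and E70 minus E60 (right); red and blue points were called higher and lower, crosses are genes not above background, and open circles are genes below background on at least 1 array of the stages compared, whose fitted changes are not measured ones. The left panel holds 5 red and 15 blue points, and the right panel holds none of either.

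The second question was what changed as M1 went from the bell to the late bell stage. At E70 against E60, 0 SLC genes were called in either direction, beside 0.421% of all probe sets (limma), and 6 of the 120 had an unadjusted p under 0.05, beside 9.68% of all genes. With E70 and E60 fitted alone, so that the spread of the E50 arrays did not enter, again 0 were called, beside 1.75% of all probe sets, with 20 SLC genes at an unadjusted p under 0.05, beside 21.5% of all genes, and a lowest adjusted p of 0.0529. With array weights by stage 1 SLC gene was called, *SLC2A1* (adjusted p = 0.0236), beside 3.68% of all probe sets. The median log2 change was 0.11 over the 120 genes and 0.05 over all probe sets. The stages' arrays did not overlap for 12 SLC genes higher and 10 lower at E70, beside 18.4% of all genes higher and 15.7% lower. In the fit of these stages alone the 95% interval of 58 genes lay within a 2-fold change in either direction, and the median interval reached 0.65 to each side on the log2 scale.

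*SLC2A1*, the glucose transporter GLUT1, had signals of 2711, 1983 and 2084 at E70, against 1114, 1080.1 and 1112 at E60, and the arrays did not overlap. The log2 change was 1.02 (SE 0.31, adjusted p = 0.387 in the fit of 9 arrays; SE 0.17, 95% interval 0.59 to 1.45, adjusted p = 0.0614 in the fit of these stages alone). Its E50 signals of 1009, 1465 and 2158 reached from below the E60 range into the E70 range. *SLC37A4* likewise had 413, 415 and 399 at E70, against 299, 183 and 238 at E60 (log2 change 0.80, adjusted p = 0.145 alone), and *SLC2A5*, a fructose transporter, had 699, 790.3 and 672 at E70, against 526, 606 and 513 at E60 (log2 change 0.39, adjusted p = 0.248 alone). These were 3 of the 15 genes for sugars and polyols, a share near the 18.4% of all genes higher without overlap. *SLC2A3* gave 790.4, 991 and 919 at E70 and 747, 1092 and 1031 at E60.

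*SLC35A3*, which brings UDP-N-acetylglucosamine into the Golgi, had the lowest adjusted p of the 120 genes in the fit of these stages alone. Its signals were 73.3, 81.1 and 106 at E70, against 235, 219 and 184 at E60 (log2 change -1.30, SE 0.20, 95% interval -1.81 to -0.80, adjusted p = 0.0529). *SLC35D2*, another Golgi carrier of UDP-sugars, gave 313, 353 and 467 at E70, against 551, 591 and 539 at E60 (log2 change -0.59, adjusted p = 0.202 alone). *SLC35B3* gave 318, 375 and 321 at E70, against 641, 473 and 496 at E60 (log2 change -0.66, adjusted p = 0.151 alone). These 3 of the group's 13 genes for nucleosides and nucleotide sugars were those without overlap at E70, beside 15.7% of all genes lower without overlap. *SLC35B2*, the other PAPS transporter, was not among them, with 472, 279 and 360.3 at E70 and 279.7, 175 and 247 at E60.

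Among amino acid carriers, *SLC36A2* was above background on all E60 arrays and on no E70 array, with 26.7, 2.21 and 29.8 at E70, against 163, 167 and 155 at E60. It was at least 3.46-fold lower at E70, yet was not called (adjusted p = 0.450 in 9 arrays, 0.164 alone). *SLC1A3* gave 21.8, 51.8 and 47.6 at E70, against 90.1, 117 and 106 at E60 (adjusted p = 0.136 alone), with 1 of 3 E70 arrays above background. As *SLC36A2* and *SLC1A3* entered the set through E60 alone, a lower level at E70 follows from that selection. *SLC38A1*, an importer of glutamine, went the other way, with 287, 290.3 and 269.9 at E70, against 159, 116 and 194 at E60 (log2 change 0.88, adjusted p = 0.132 alone). For the mitochondrial citrate carrier *SLC25A1*, which feeds fatty acid synthesis, the values were 804, 674 and 644 at E70, against 509, 463 and 504 at E60 (log2 change 0.52, adjusted p = 0.167 alone). *SLC5A6*, the sodium-dependent importer of biotin and pantothenate, gave 375, 265 and 324 at E70, against 183, 235 and 203 at E60 (log2 change 0.63, adjusted p = 0.186 alone).

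The other genes above background whose E70 and E60 arrays did not overlap were *SLC27A1*, above background on 1 E60 array, *SLC26A6*, *SLC25A37*, *SLC52A2* and *SLC25A38*, the last 4 with log2 changes of 0.23 to 0.51, and *SLC22A3*, *SLC15A2*, *SLC3A1*, *SLC25A5* and *SLC31A1*, the copper importer, with changes of -0.81 to -0.36. None was called. Epithelial markers were higher at E70, with a summed signal over 5 of 9 listed genes of 11623 to 12192 at E70, against 5572 to 5743 at E60, and no epithelial marker called. Bone and odontoblast markers (10 of 12 listed) summed to 44172 to 52194 at E70, against 120340 to 121976 at E60, with 2 called lower, beside 0.421% of all probe sets called. The part of such shifts in the SLC values was not tested.

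**Figure D5:**
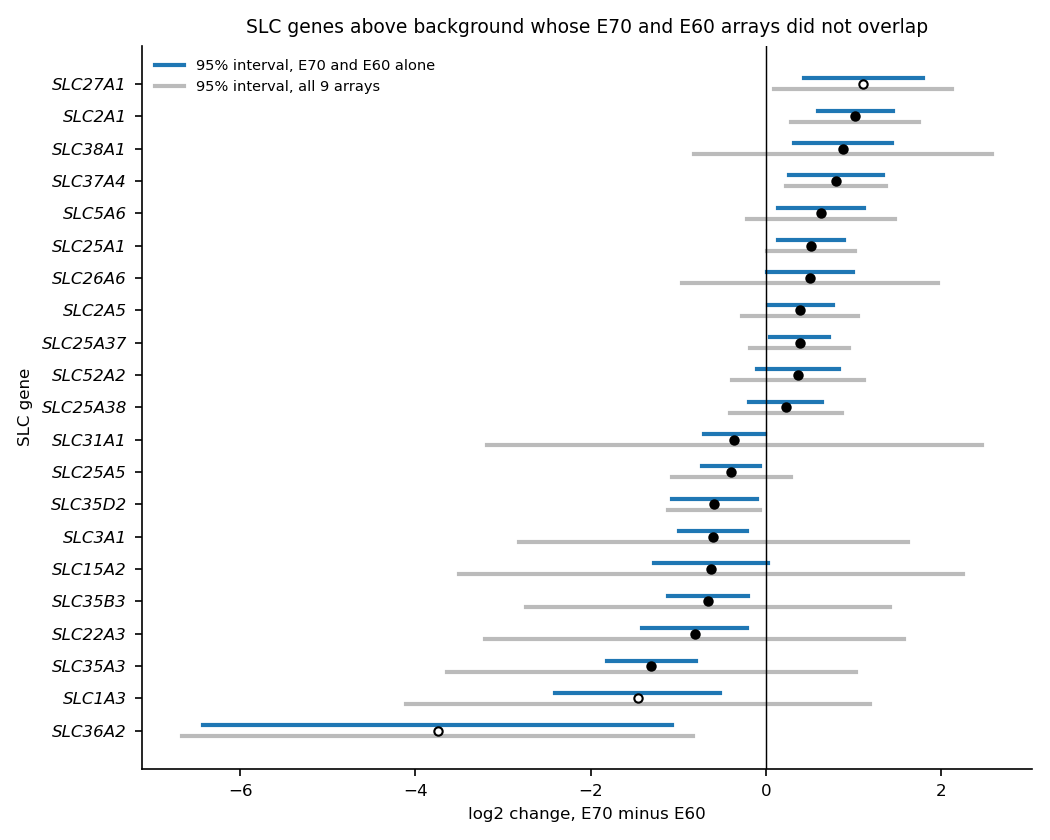
log2 change at E70 minus E60 (points) of the 21 SLC genes above background with no overlap between E70 and E60 arrays, with 95% intervals from the fit of these stages alone (blue) and of all 9 arrays (grey). Open points are genes below background on at least 1 of these arrays (*SLC1A3*, *SLC27A1* and *SLC36A2*), whose fitted changes are not measured ones. *SLC2A1* had 1.02 with a blue interval of 0.59 to 1.45, and *SLC35A3* -1.30 with -1.81 to -0.80.

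The span from cap to late bell, E70 against E50, shares its E50 arrays with the first comparison and is no independent repeat of it. It gave 5 higher and 14 lower SLC genes, 15.8% of 120, beside 18.8% of all probe sets (limma), and of all genes 7.33% were higher and 14.3% lower. The SLC counts became 15 higher and 2 lower after median centring and 9 higher and 11 lower after quantile normalization. Of all probe sets, 24.4% and 16.9% were called in that order. Leaving out any 1 E70 array left 2 higher and 4 or 5 lower, beside 9.38% to 10.7% of all probe sets called. *SLC25A3* had a log2 change of 1.52 (SE 0.24, adjusted p = 0.00609, limma) and *SLC35F5* of 1.32 (SE 0.36, adjusted p = 0.0420). The other probe set of *SLC25A3*, also above background, changed by 0.76 and was not called (adjusted p = 0.404, limma). At E60 against E50 that probe set was called higher, at 2.73 (adjusted p = 0.0209, limma). With the mean of its probe sets *SLC25A3* was not called at E70 against E50. *SLC35B3* (adjusted p = 0.0169) and *SLC25A46* (adjusted p = 0.0128) were called higher. No fold is given for them, as their E70 signals all lay under the background of E50 replicate 3. On the lower side, *SLC2A4RG* had -1.93, *SLC35B2* -1.77, *SLC45A2* -1.72, *SLC22A5* -1.59, *SLC2A12* -1.42, *SLC25A11* -1.27 and *SLC35C2* -1.18, with adjusted p of 0.00707 to 0.0476. *SLC39A1* and *SLC44A2* were called lower as well, at -1.05 and -0.88. Of these calls, those for *SLC25A11*, *SLC2A12* and *SLC44A2* held under 7 of 20 alternatives, those for *SLC22A5* and *SLC35F5* under 8 and the rest under 11 or more.

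A few genes were called only in this comparison. *SLC27A1*, which takes up long-chain fatty acids, had 125, 80.0 and 66.7 at E70, against 17.4, 13.3 and 38.5 at E50, where it was not above background on any array (adjusted p = 0.0176, limma, with no fold for that reason). At E60 it had 41.0, 36.2 and 44.4, with 1 array above background. As *SLC27A1* entered the set through E70 alone, a higher level at E70 follows from that selection. *SLC25A4* fell to 829, 728 and 578 at E70, against 1695, 1173 and 1813 at E50 (log2 change -1.12, SE 0.26, adjusted p = 0.0240, limma). Of 15 muscle markers 10 were called lower in this comparison, beside 14.3% of all genes, and the part of muscle was not tested. *SLC35D2* fell to 313, 353 and 467 at E70, against 715, 749.7 and 774 at E50 (0.499 times the E50 level, adjusted p = 0.0222, limma), and its 9 signals were all above background. *SLC2A2* and *SLC22A8* were also called lower, as was *SLC23A1* again, but none of them was above background on any E60 or E70 array. That these calls appear in one comparison and not in another was not tested as a difference.

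The genes with the smallest range of stage means among the 40 above background on all 9 arrays were *SLC38A9*, *SLC2A3*, *SLC39A7*, *SLC25A6* and *SLC25A37*. *SLC38A9*, a lysosomal arginine sensor of the mTORC1 pathway, had 518, 646 and 836 at E50, 647, 595 and 652 at E60 and 808, 488 and 679 at E70. Its stage means spanned 0.05 on the log2 scale. Another probe set of *SLC38A9*, also above background, changed by 2.90 at E60 against E50 and was not called (adjusted p = 0.162, limma). *SLC25A6* had 19396, 20386 and 20963 at E50, 16693, 18145 and 18771 at E60 and 27356, 22589 and 17590.2 at E70. *SLC25A37* (mitoferrin), which brings iron into mitochondria for haem, shows how far probe sets can part: its brightest probe set changed by -0.07 at E60 against E50 and its other one by 3.55 (adjusted p = 0.0174). *SLC38A1* was similar, with -0.05 on the brightest probe set and 3.77 (adjusted p = 0.00397) on another. Among 56 pairs of a brightest and another probe set of 1 gene, 30 had opposite signs at E60 against E50, and no pair was called in opposite directions.

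Of the 90 genes, 20 were called in at least 1 comparison and 70 in none. Of these 70, which are a remainder and no test of stability, 26 were above background on all E60 and E50 arrays. Their log2 changes at E60 against E50 were positive for 7 and negative for 19, with quartiles of -0.74 and 0.00, between -1.47 (*SLC25A39*) and 1.01 (*SLC25A24*). Of all 6765 genes, 2919 had a positive and 3846 a negative change. Passing the E50 backgrounds, which reached 379, favours genes high at E50, so the split of the 26 is partly set by selection. At E70 against E60, 65 were above background on all arrays of both stages, and their changes were positive for 42 and negative for 23, with quartiles of -0.10 and 0.32, between -1.30 (*SLC35A3*) and 1.02 (*SLC2A1*). Of all 6765 genes, 3689 had a positive and 3076 a negative change between these stages. Not named above were the glutamate and neutral amino acid carriers *SLC1A1*, *SLC1A4* and *SLC1A6*, *SLC3A2*, the shared heavy chain of several amino acid exchangers, *SLC7A1*, the importer of arginine and lysine, *SLC6A8*, the creatine transporter, and *SLC38A10*. *SLC6A8* came closest to a call among them, with 258, 283 and 336 at E60, against 421, 535 and 452 at E50 (log2 change -0.68, SE 0.23, adjusted p = 0.0825, limma). *SLC3A2* had 97.6, 174 and 119.6 at E60 and 273, 72.6 and 24.2 at E50, where 1 array was above background.

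The sugar carriers *SLC2A8*, *SLC5A4*, *SLC45A3* and *SLC50A1* and the zinc, copper and magnesium carriers *SLC30A3*, *SLC30A5*, *SLC31A2*, *SLC39A4*, *SLC39A5* and *SLC41A1* were likewise not called. For *SLC50A1* the E60 signals of 455, 421 and 361 lay below the E50 signals of 576, 522 and 938 (log2 change -0.68, adjusted p = 0.181), and for the others the arrays of these stages overlapped. *SLC33A1*, which brings acetyl-CoA into the endoplasmic reticulum, had 443, 397 and 418 at E60, against 63.1, 55.8 and 382 at E50, of which 1 was above background (adjusted p = 0.0930). The regulators *SLC9A3R1* and *SLC9A3R2*, scaffold proteins that anchor a sodium-proton exchanger, had log2 changes of -0.22 (SE 0.42) and -1.11 (SE 0.32, adjusted p = 0.0523). The rest, *SLC8B1*, *SLC9A5*, *SLC12A4*, *SLC22A6*, *SLC25A14*, *SLC25A17*, *SLC25A21*, *SLC25A30*, *SLC25A33*, *SLC25A36*, *SLC25A48*, *SLC26A11*, *SLC27A6*, *SLC35A4*, *SLC35F6*, *SLC46A1* and *SLC46A2*, were not called either, and for 15 of these 17 the E60 and E50 arrays overlapped.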

How the data were processed

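Biotin-labelled RNA of additional molar germs was hybridised to 9 Affymetrix Porcine Genome Arrays. Probe set signals were made by the authors with MAS 5.0, and the deposited table holds them as intensity values on a linear scale with an equal trimmed mean (500.1) on every array. The values were floored at 1 before log2. Of 24123 probe sets, 124 array controls were set aside. Symbols came from the platform table: 10069 probe sets had 1 symbol, 198 several and 13732 none, and 5 SLC probe sets with several symbols were left out. The Entrez numbers of 174 of 176 SLC probe sets matched RefSeq's gene table for the pig.

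Stages were taken from the labels. All 9 arrays were fitted together with limma 3.58.1 in R 4.3.3 (lmFit, eBayes with a constant prior, prior df 1.47), resembling the random-variance F-test of the study's methods, and p-values were adjusted by Benjamini-Hochberg over 23999 probe sets. The script was tested on simulated data. The 20 alternatives were the stages of a contrast alone, array weights, a trended robust prior, a replicate block, 3 other scalings, a floor of 32, a pseudocount of 16, a filter on dim probe sets, the mean of a gene's probe sets, and each array left out.

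Genes named were the called genes above background with the largest changes, up to 3 called genes per substrate group, genes of the tooth list and the 5 steadiest genes; genes whose E70 and E60 arrays did not overlap, and the remaining ones, were chosen after their values were seen. The genes and lists were chosen with earlier results of these data known. Levels of different probe sets were not compared, and arrays have no read depth. No sequences are shown.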

Additional observations from a re-analysis of the deposited data

How the results depend on the processing

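Counts of SLC genes called were 17 over the 3 stages, 5 higher and 15 lower at E60 against E50, 0 and 0 at E70 against E60, and 5 higher and 14 lower at E70 against E50. Fitting the stages of a contrast alone gave 1 higher and 4 lower at E60 against E50 and 1 higher and 3 lower at E70 against E50. Of all probe sets, these fits called 8.70% and 7.82% in that order. Array weights by stage gave 6 over the stages, 3 higher and 2 lower at E60 against E50, 1 higher at E70 against E60, and 3 higher and 1 lower at E70 against E50. Median centring gave 14 higher and 3 lower at E60 against E50 and 15 higher and 2 lower at E70 against E50. A floor of 32 gave 26 over the stages and 8 higher at E70 against E50, quantile normalization 9 higher at E70 against E50, and the mean of all probe sets of a gene 9 lower at E60 against E50. Leaving out 1 array gave 7 to 27 over the stages, 2 to 10 higher and 5 to 22 lower at E60 against E50, 0 to 0 higher and 0 to 0 lower at E70 against E60, and 2 to 9 higher and 4 to 22 lower at E70 against E50. Array weights called 6.24% of all probe sets at E60 against E50 and 7.18% at E70 against E50. Median centring called 23.3% and 24.4% in that order, and a floor of 32 called 22.0% and 22.7%. Quantile normalization called 16.9% at E70 against E50, and the mean of probe sets 18.4% at E60 against E50. Leaving out 1 array called 7.33% to 24.9% at E60 against E50 and 9.38% to 25.5% at E70 against E50. At E70 against E60 that gave 0.125% to 0.621%. The cause of these shifts was not tested.

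With the mean of all probe sets, *SLC44A2* reversed at E60 against E50 (0.00385, adjusted p = 0.996) and at E70 against E50 (0.026, adjusted p = 0.974), and *SLC25A37*, not called as reported, turned to 1.74 (adjusted p = 0.0147). No other called SLC gene changed sign under the alternatives in which it was tested, and changes of sign of values never called were not counted. A replicate block gave 5 over the stages, 2 higher and 6 lower at E60 against E50, and 5 lower at E70 against E50. Of all probe sets, it called 11.7% at E60 against E50 and 12.3% at E70 against E50. The replicate numbers did not pair the arrays, since deviations of arrays with the same number correlated at -0.02 to 0.03. Few arrays, and signal over background at E50, limit the precision.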

Other observations

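Other membrane transporters were counted in the same way for comparison, with symbol lists chosen when earlier results of these data were known. At E60 against E50, ABC transporters counted 0 higher and 3 lower of 13 genes, the organellar proton pump (V-ATPase subunits) 1 higher and 1 lower of 16, other ion pumps 1 higher and 1 lower of 15, aquaporins 0 higher and 1 lower of 5, and SLCO organic anion carriers none of 3, beside 7.20% of all genes higher and 13.7% lower. At E70 against E60 the only call in these lists was 1 lower gene of the organellar proton pump, *ATP6V0D2*, which is also on the list of osteoclast markers. It had signals of 28.0, 9.34 and 14.9 at E70, where no array was above background, against 429, 435 and 468 at E60.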
